A study of Homo sapiens with 12 samples.

Results

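Transcript levels of 10 genes of the endoplasmic reticulum (ER) stress machinery were examined in NS-SV-AC, a cell line derived from acinar cells of a human salivary gland. The genes were HSPA5, HSP90B1, CALR, PDIA4, XBP1, DNAJB9, HERPUD1, SDF2L1, ERN1 and ATF6, found by those gene names in the transcript tables of all 12 libraries. They are 10 of 60609 annotated genes, and all 10 were among the 17185 genes that passed the filter on low values, which asked for 2 or more libraries with a TPM of at least 1. TPM, a relative transcript abundance, divides by transcript length and scales every library to the same sum, so levels of different genes can be set side by side. The series is about Sjögren's syndrome, an autoimmune disease of the salivary and tear glands, and double-stranded RNA from mitochondria. Each of the 6 groups held 2 libraries. Cells were given DMSO (the solvent control), the nucleoside analogue 2'-C-methyladenosine (2-CM) or the plant polyphenol resveratrol (RES), and each compound was combined with a transfection of either the double-stranded RNA mimic poly I:C or the control that the labels call depc. All cells were of the same line, 2-CM and RES had a labelled dose of 20 μm, read here as micromolar, and each was added 24 h ahead of the transfection and again with it. Poly I:C acted for 14 h and the cells grew for 48 h. The labels do not say that the 2 replicates of a group came from separate cultures, so p-values measure the spread between these libraries, which may be technical.

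The ER folds and glycosylates proteins bound for secretion or for membranes. HSPA5 (BiP) and HSP90B1 (GRP94) are its main HSP70 and HSP90 chaperones, CALR is a calcium-binding lectin chaperone, and PDIA4 is a disulfide isomerase. DNAJB9 and SDF2L1 act with HSPA5 as co-chaperones, and HERPUD1 takes part in ER-associated degradation. When unfolded protein accumulates, 3 membrane sensors start the unfolded protein response: ERN1 (IRE1), ATF6 and the kinase PERK. ATF6 is cut in the Golgi to release a transcription factor. ERN1 removes a short segment from XBP1 mRNA, and the shifted reading frame encodes the active factor XBP1s. Secretory gland cells depend on this response because of their large output of protein.

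Both branches act on DNA elements upstream of their targets, so the promoters were searched for them in the RefSeq windows of build GRCh38.p14, from 250 bases before to 50 bases after each annotated start. The ER stress response element (ERSE) was searched as CCAAT and CCACG with 9 bases of any kind between them, ERSE-II as ATTGG and CCACG with 1 base between them, and the unfolded protein response element (UPRE) as TGACG followed by TGG, on both strands; no matches in these genes overlapped. All 10 genes had a window, 12 windows in all. ERSE occurred in the windows of 4 of the 10 genes (HSPA5, HSP90B1, CALR and XBP1), against 27 of 35116 windows of all genes (0.0769%), and HSP90B1 held 2 matches. ERSE-II occurred in those of HERPUD1 and SDF2L1, against 19 of all windows (0.0541%). UPRE had no match in these 12 windows (0.729% of all windows hold one), and DNAJB9, PDIA4, ERN1 and ATF6 matched none of the 3 elements as spelled here. The matches and their surroundings are shown for the genes in which the search found an element. Capitals mark the match, read on the strand of the gene, so that a match on the other strand appears as its reverse complement. For HSP90B1 the 2 matches are shown without surroundings: they lie before the RefSeq start that sets the window, but after the earlier gene start that the hg38 annotation of the files gives, inside an annotated exon.
HSPA5, chr9:125241371-125241429, minus strand: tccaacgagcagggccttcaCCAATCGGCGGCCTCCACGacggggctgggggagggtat
HSP90B1, chr12:103930216-103930234, plus strand: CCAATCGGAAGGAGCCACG
HSP90B1, chr12:103930321-103930339, plus strand: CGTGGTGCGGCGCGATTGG
CALR, chr19:12938364-12938422, plus strand: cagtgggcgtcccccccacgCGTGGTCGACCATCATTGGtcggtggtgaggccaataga
XBP1, chr22:28800598-28800641, minus strand: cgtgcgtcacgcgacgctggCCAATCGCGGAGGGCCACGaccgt
HERPUD1, chr16:56932005-56932055, plus strand: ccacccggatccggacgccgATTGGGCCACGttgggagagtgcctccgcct
SDF2L1, chr22:21642094-21642144, plus strand: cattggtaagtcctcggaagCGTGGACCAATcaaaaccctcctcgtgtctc

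The poly I:C label could be read in the RNA: IFIT1, OAS1, OAS2, MX1 and ISG15, which interferon induces, did not overlap between the 6 poly I:C and the 6 depc libraries. Of 5 epithelial markers, the keratins KRT8 and KRT18 were high in all 12 libraries (466 to 1958 TPM), while KRT19 and the adhesion gene CDH1 stayed under 1 TPM in every library and the adhesion gene EPCAM reached 1 TPM in 2 libraries, at most 1.23. The collagens COL1A1 (15.9 to 100.3 TPM) and COL3A1 (14.2 to 60.1 TPM), listed as fibroblast markers, were detected in all 12, DCN of the same list reached 18.0 TPM and was at 1 TPM or more in 11 libraries, and PDGFRA stayed under 0.1 TPM. KRT18 ran from 690.4 to 1571 TPM with depc and from 466 to 645 TPM with poly I:C. KRT8 overlapped between the transfections, with 989 to 1958 TPM with depc and 630 to 1087 TPM with poly I:C. The summed TPM of the epithelial and of the fibroblast markers was lower with poly I:C in every compound. For 2-CM these sums went from 3210.4 and 3529.5 to 1390.3 and 1492 and from 134 and 144 to 114 and 119.6. Within the fibroblast list, DCN ran from 0.584 to 6.19 TPM with depc and from 3.0 to 18.0 TPM with poly I:C, and COL3A1 overlapped between the transfections. Of the immune markers, PTPRC and CD3E were at 0 in every library and CD68 was detected. The immune sum rose with poly I:C under DMSO, from 1.68 and 2.81 to 4.50 and 4.53 TPM, and overlapped between the transfections under 2-CM and RES. The part of these markers in the results was not tested. The acinar markers AQP5, PRB1, MUC7 and STATH were at 0 in every library, AMY1A and LPO stayed under 0.05 TPM, and BHLHA15, a regulator of secretory cells, ran from 0.507 to 2.69 TPM. The salivary acinar identity of the label was therefore not visible in these defining markers. Reads estimated from coverage ran from 31.2 to 49.4 M per library. In bulk RNA, fewer cells of a type and less RNA per cell cannot be told apart.

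On hg38, the plus strand carries ATF6 (ENSG00000118217.6) at chr1:161766320-161964070, DNAJB9 (ENSG00000128590.5) at chr7:108569867-108574850, HSP90B1 (ENSG00000166598.15) at chr12:103930107-103953645, HERPUD1 (ENSG00000051108.15) at chr16:56932142-56944864, CALR (ENSG00000179218.13) at chr19:12938578-12944489 and SDF2L1 (ENSG00000128228.5) at chr22:21642302-21644299. The minus strand carries PDIA4 (ENSG00000155660.11) at chr7:149003062-149028662, HSPA5 (ENSG00000044574.8) at chr9:125234853-125241343, ERN1 (ENSG00000178607.16) at chr17:64039142-64130819 and XBP1 (ENSG00000100219.16) at chr22:28794555-28800597. Nearly all TPM of 6 members fell on 1 annotated transcript (97.4% to 100%), while the main transcript held 88.4% of PDIA4, 69.7% of ERN1, 60.8% of HERPUD1 and 45.3% of XBP1.

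Every member was detected in all 12 libraries, over a wide range of levels. CALR was the highest, with a median of 645 TPM over the libraries, followed by HSP90B1 with 224 and HSPA5 with 139. PDIA4 (108), SDF2L1 (78.0) and XBP1 (72.9) formed a middle tier, and HERPUD1 had 28.9 TPM. Lowest were the sensors, ATF6 with 9.23 and ERN1 with 5.26, and the co-chaperone DNAJB9 with 5.31. Neighbours in this order overlapped across libraries: HSPA5 ran from 78.3 to 253 TPM, which overlaps the ranges of HSP90B1 (114 to 474) and PDIA4 (60.1 to 181). DNAJB9 varied most, 13.3-fold between its lowest and highest library, and CALR least, 1.80-fold.

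**Figure D1:**
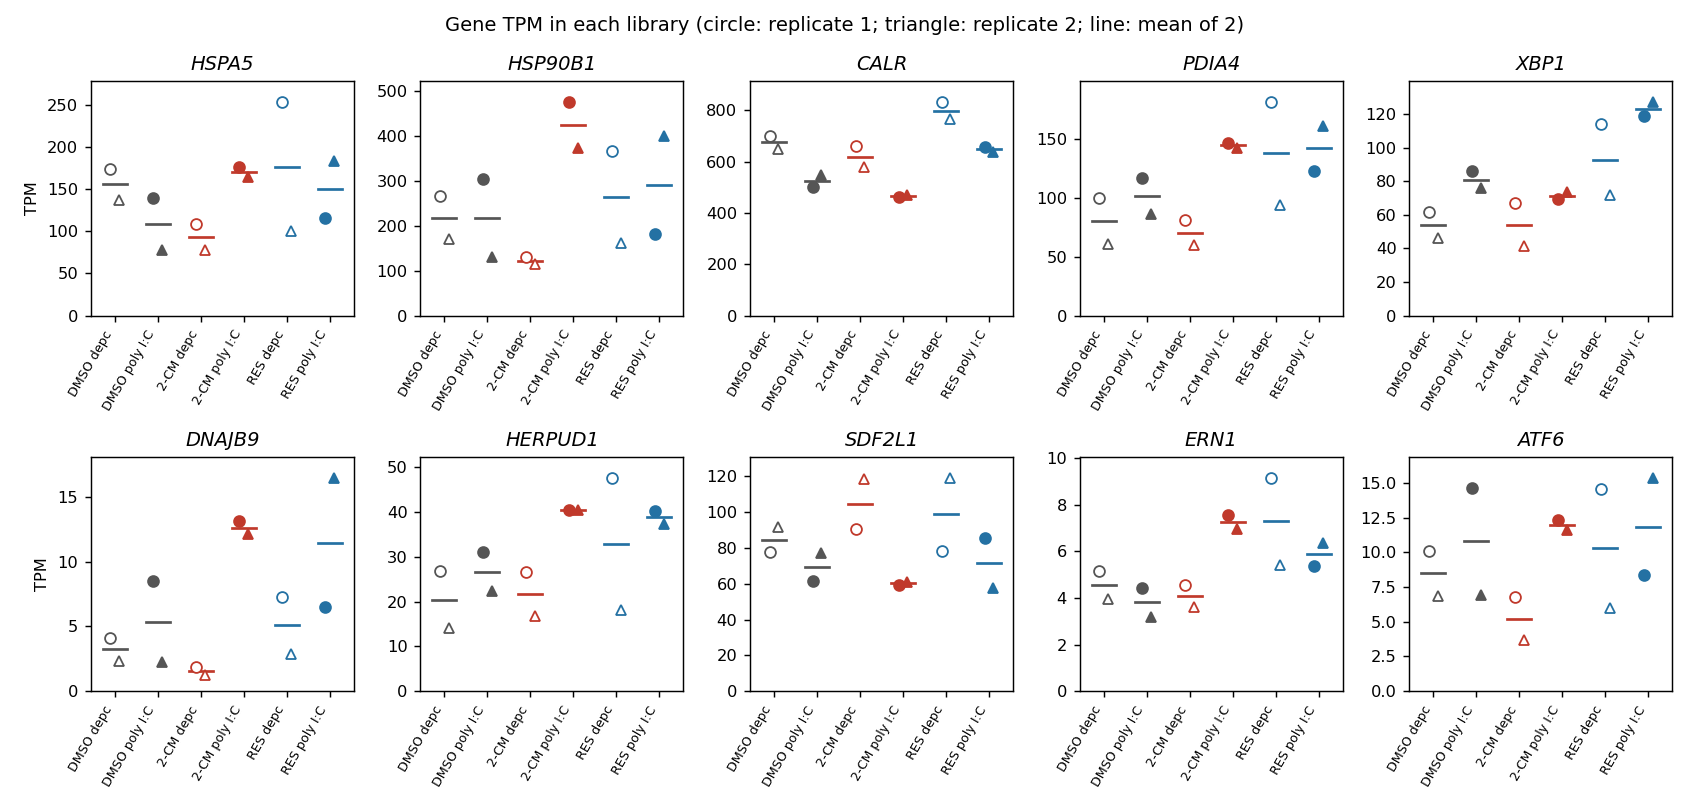
Gene TPM (y axes from 0, a scale per gene) in each of the 12 libraries, by group (x axis), with open symbols for depc, filled symbols for poly I:C, circles for replicate 1, triangles for replicate 2 and lines for the mean of 2. The 2 replicates of 2-CM with poly I:C lie close together for 9 of the 10 genes and are 474 and 374 TPM for HSP90B1, whereas those of RES with depc are far apart for HSPA5 (253 and 100.2 TPM) and DNAJB9 (7.30 and 2.86 TPM).

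Among the chaperones, HSP90B1 and PDIA4 rose with poly I:C under 2-CM and CALR fell, by TPM. HSP90B1 TPM was 266 and 169.9 in DMSO with depc and 304 and 130.2 in DMSO with poly I:C, 131 and 114 in 2-CM with depc and 474 and 374 in 2-CM with poly I:C, and 367 and 161 in RES with depc and 182 and 399 in RES with poly I:C. The 2-CM groups were far apart (86.6% of all genes did not overlap there), while those of DMSO and of RES overlapped. Under 2-CM, HSP90B1 was 1.78 ± 0.53 (SE) higher with poly I:C on the log2(TPM + 1) scale, at an adjusted p of 0.0320 from limma. The change was -0.09 under DMSO and 0.15 under RES, and neither passed (adjusted p = 0.962 and 0.917, limma). With libraries scaled by the median of ratios, a scaling that sets the median gene near no change, the 2-CM estimate was 0.93 and did not pass (adjusted p = 0.0566, limma). Its exons share 546 bases, 11.6% of their length, with C12orf73 on the opposite strand (mean 18.3 TPM against 256 for HSP90B1), and the quantification carried no strand option.

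HSPA5, the central chaperone and the repressor of the sensors, had 174 and 138 in DMSO with depc and 140.0 and 78.4 in DMSO with poly I:C, 109 and 78.3 in 2-CM with depc and 176 and 165 in 2-CM with poly I:C, and 253 and 100.2 in RES with depc and 116 and 184 in RES with poly I:C TPM. Poly I:C libraries were above depc libraries under 2-CM only, where 86.6% of all genes did not overlap. Replicates of RES with depc differed more than any pair of group means. Its log2 change under 2-CM was 0.88 ± 0.45 with an adjusted p of 0.122 (limma), and the estimates under DMSO and RES were -0.56 and -0.12 (adjusted p = 0.587 and 0.917). The 2-CM estimate was 0.033 with median-of-ratios scaling (adjusted p = 0.929, limma) and 0.50 after GC correction (0.236). No change of HSPA5 passed the test in any of the 10 comparisons of the main fit. The 2-CM change was called in 3 of 22 alternative settings.

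By TPM, CALR was lower with poly I:C in every compound group. Its TPM was 699 and 651 in DMSO with depc and 502 and 548 in DMSO with poly I:C, 660.5 and 577 in 2-CM with depc and 462 and 470.4 in 2-CM with poly I:C, and 831 and 767 in RES with depc and 657 and 639 in RES with poly I:C, so that the poly I:C libraries lay below the depc libraries of the same compound in all 3 cases. The share of all genes below in all 3 was not computed, and 44.9% under DMSO, 86.6% under 2-CM and 30.2% under RES did not overlap in either direction. Under 2-CM the fall of CALR was -0.40 ± 0.13 (adjusted p = 0.0346, limma), and averaged over the compounds it was -0.36 ± 0.07 (adjusted p = 0.0101). Within DMSO (-0.36, adjusted p = 0.154) and RES (-0.30, adjusted p = 0.340) it did not pass. After each library was corrected for the GC content of exons, the CALR estimate was 0.25 under 2-CM and 0.0067 on average, and both calls were lost (adjusted p = 0.374 and 0.973, limma).

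PDIA4 had 99.5 and 60.8 in DMSO with depc and 117 and 86.1 in DMSO with poly I:C, 80.8 and 60.1 in 2-CM with depc and 147 and 143 in 2-CM with poly I:C, and 181 and 94.2 in RES with depc and 123 and 161 in RES with poly I:C TPM. Only the 2-CM groups separated, as did those of 86.6% of all genes. There PDIA4 rose by 1.04 ± 0.35 with poly I:C (adjusted p = 0.04, limma), and the changes under DMSO (0.36) and RES (0.11) had adjusted p of 0.681 and 0.910. With median-of-ratios scaling the 2-CM estimate was 0.20 and the call was lost (adjusted p = 0.526, limma).

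The co-chaperones of HSPA5 moved in opposite directions under 2-CM by TPM, but not after GC correction. DNAJB9, which also returns ERN1 to its inactive state, had 4.13 and 2.37 in DMSO with depc and 8.51 and 2.22 in DMSO with poly I:C, 1.89 and 1.24 in 2-CM with depc and 13.2 and 12.1 in 2-CM with poly I:C, and 7.30 and 2.86 in RES with depc and 6.48 and 16.5 in RES with poly I:C TPM. Both 2-CM libraries with poly I:C exceeded every depc library of the study. The share of all genes with this pattern was not computed, and 86.6% of all genes did not overlap between the 2-CM groups. The replicates of DMSO with poly I:C and of both RES groups were far apart for DNAJB9. DNAJB9 rose by 2.42 ± 0.60 under 2-CM (adjusted p = 0.0276, limma) and by 1.28 ± 0.35 on average over compounds (adjusted p = 0.0258). Within DMSO (0.41, adjusted p = 0.802, limma) and RES (1.01, adjusted p = 0.512) DNAJB9 did not pass. SDF2L1 had 77.5 and 91.5 in DMSO with depc and 61.5 and 77.2 in DMSO with poly I:C, 90.5 and 118 in 2-CM with depc and 59.1 and 61.2 in 2-CM with poly I:C, and 78.5 and 119 in RES with depc and 85.7 and 57.6 in RES with poly I:C TPM. It fell by 0.78 ± 0.27 under 2-CM (adjusted p = 0.0438, limma) and its averaged change was -0.51 ± 0.16 (adjusted p = 0.0405). Within DMSO (-0.29, adjusted p = 0.669, limma) and RES (-0.45, adjusted p = 0.518) SDF2L1 did not pass. After GC correction its estimates were 0.33 under 2-CM and 0.13 on average, and neither passed (adjusted p = 0.115 and 0.310, limma). The averaged call of SDF2L1 was also lost with median-of-ratios scaling (-0.73, adjusted p = 0.0627). HERPUD1, of ER-associated degradation, had 26.7 and 14.2 in DMSO with depc and 31.0 and 22.4 in DMSO with poly I:C, 26.7 and 16.9 in 2-CM with depc and 40.4 and 40.5 in 2-CM with poly I:C, and 47.6 and 18.2 in RES with depc and 40.2 and 37.4 in RES with poly I:C TPM. Its 2-CM groups did not overlap (nor did those of 86.6% of all genes), but the change of 0.90 ± 0.45 did not pass (adjusted p = 0.118, limma). That change was 0.076 with median-of-ratios scaling (0.854), and it was called in 4 of 22 alternative settings.

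Of the sensors, ERN1 had 5.14 and 3.94 in DMSO with depc and 4.42 and 3.20 in DMSO with poly I:C, 4.56 and 3.60 in 2-CM with depc and 7.55 and 6.95 in 2-CM with poly I:C, and 9.15 and 5.42 in RES with depc and 5.39 and 6.36 in RES with poly I:C TPM, and ATF6 had 10.1 and 6.87 in DMSO with depc and 14.6 and 6.93 in DMSO with poly I:C, 6.79 and 3.67 in 2-CM with depc and 12.3 and 11.6 in 2-CM with poly I:C, and 14.6 and 5.98 in RES with depc and 8.35 and 15.3 in RES with poly I:C TPM. For both genes the 2-CM groups separated, with poly I:C higher, and the DMSO and RES groups overlapped. Under 2-CM, 86.6% of all genes did not overlap. Neither passed: the change under 2-CM was 0.71 ± 0.28 for ERN1 (adjusted p = 0.0630, limma) and 1.10 ± 0.50 for ATF6 (adjusted p = 0.0871). With median-of-ratios scaling these were -0.01 and 0.35, and after GC correction 0.94 for ERN1, which then passed (adjusted p = 0.0432, limma), and 0.16 for ATF6.

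XBP1, the transcription factor downstream of ERN1, had 61.8 and 46.2 in DMSO with depc and 86.0 and 76.0 in DMSO with poly I:C, 67.03 and 41.3 in 2-CM with depc and 69.2 and 73.7 in 2-CM with poly I:C, and 114 and 72.1 in RES with depc and 119 and 127 in RES with poly I:C TPM. It was the one member whose poly I:C libraries were above the depc libraries in all 3 compounds. Of all genes, 44.9% under DMSO, 86.6% under 2-CM and 30.2% under RES did not overlap in either direction. The share of all genes above in all 3 was not computed. The 3 estimates were 0.59 under DMSO, 0.43 under 2-CM and 0.43 under RES, and their average was 0.49 ± 0.17 (adjusted p = 0.0527, limma), just outside the threshold of 0.05. The average passed in 6 of 21 alternative settings, was 0.27 with median-of-ratios scaling (adjusted p = 0.186, limma) and 0.28 after GC correction (0.114). With median-of-ratios scaling the 2-CM estimate turned to -0.40. With 1 library left out, the TPM estimates ranged from 0.38 to 0.79 under DMSO, 0.09 to 0.78 under 2-CM and 0.11 to 0.76 under RES.

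Across the 10 genes, poly I:C under 2-CM gave 5 calls, HSP90B1, PDIA4 and DNAJB9 higher and CALR and SDF2L1 lower, where 49.3% of all tested genes were called. Under DMSO none of the 10 was called (4.08% of all genes were), with 1 at an unadjusted p under 0.05 (19.7% of all genes), and under RES none was called (0.442% of all genes), again with 1 (14.0%). Averaged over the compounds 3 of the 10 were called (31.2% of all genes). The share of members called under 2-CM was thus near that of genes at large. Without overlap of the 2 groups were all 10 members under 2-CM (8 higher, 2 lower; 86.6% of all genes did not overlap), 3 under DMSO (44.9%) and 2 under RES (30.2%). Leaving out any one of the 2-CM libraries gave 0 calls, with 0.215% to 0.268% of all genes called; such a fit has 1 library in a group, which is assumed to vary like the other groups. The estimates kept their direction in all 12 fits that left out 1 library, from 2.24 to 2.61 for DNAJB9, 1.61 to 1.95 for HSP90B1, 0.83 to 1.25 for PDIA4, -0.50 to -0.31 for CALR and -0.97 to -0.58 for SDF2L1. Leaving out replicate 1 or 2 of RES with depc gave 8, with 59.1% and 59.0% of all genes called, and leaving out replicate 1 or 2 of DMSO with depc gave 3, without CALR and SDF2L1 (38.1% and 38.0%). For the average, 8 members were called without replicate 1 of RES with depc (53.4% of all genes). CALR alone was called, with 13.6% to 21.0% of all genes, when replicate 2 of DMSO, 2-CM or RES with depc, replicate 1 of DMSO with poly I:C, either replicate of 2-CM with poly I:C or replicate 2 of RES with poly I:C was left out. The averaged call of DNAJB9 was thus lost in 7 of the 12 fits (adjusted p up to 0.0783, limma) and that of SDF2L1 in 9, and CALR kept its call in all 12. The averaged estimates ranged from 1.02 to 1.54 for DNAJB9 and from -0.60 to -0.41 for SDF2L1. Under 2-CM the members' counts thus moved with the counts over all genes, and for the average they did so only in part.

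**Figure D2:**
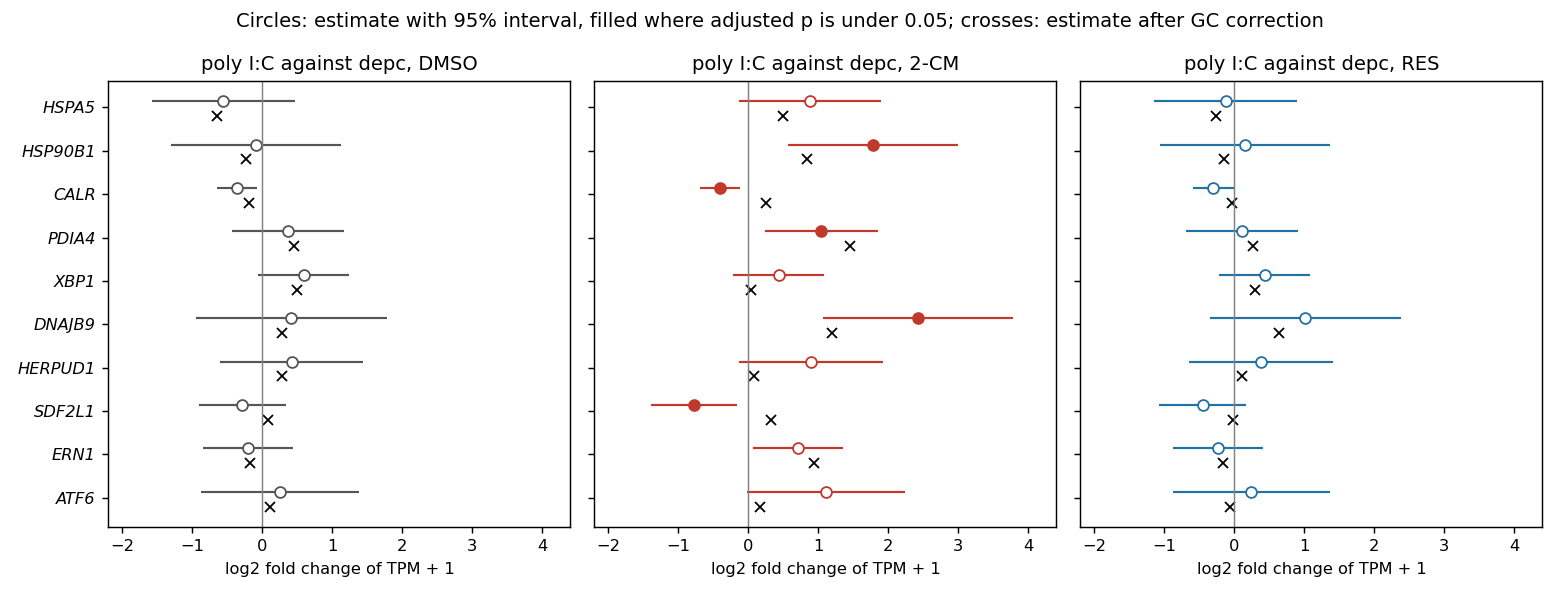
Log2 fold change of TPM + 1 for poly I:C against depc (x axis) of each member (y axis) under DMSO, 2-CM and RES, with 95% intervals; filled circles passed the test and crosses are the estimates after GC correction. Of the 30 estimates 5 passed, all of them under 2-CM, and the crosses of CALR and SDF2L1 there lie above 0. Of all tested genes, 49.3% passed under 2-CM, 4.08% under DMSO and 0.442% under RES.

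Over all tested genes, the change with poly I:C went with the GC content of exons, and the members span that range. DNAJB9 has the lowest GC content of the 10 (37.3%) and SDF2L1 the highest (64.5%), against a median of 48.4% over the tested genes. Over all tested genes, the median log2 change with poly I:C under 2-CM was 1.92 in the decile of genes lowest in GC and -0.61 in the highest decile. For the same deciles, the medians were 0.0022 and -0.51 under DMSO and 0.36 and -0.48 under RES. This tilt also separated replicates of a group: in RES with depc, the lowest decile minus the highest was 0.45 in replicate 1 and -1.26 in replicate 2. HSPA5, HSP90B1, PDIA4, DNAJB9, ERN1 and ATF6 were each higher in the replicate with the higher tilt in 6 of 6 groups, and SDF2L1 in 0 of 6. The count was 5 of 6 for XBP1, 4 for HERPUD1 and 3 for CALR. Such counts were not made for the other tested genes, so these do not set the members apart. PDIA4 (53.3% GC) and ERN1 (51.7%) lie above the median GC content and still went with the tilt, whereas HERPUD1 (42.5%) lies below it and did so in fewer groups. Whether the tilt arose in the cells or in library preparation was not tested.

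After a smooth curve of level against GC content was removed from each library, all 10 members had estimates above 0 under 2-CM, as did 81.6% of all genes, and 4 passed the test (34.7% of all genes did). The median of the members was then 0.41, below the 0.54 of all genes. DNAJB9 was then 1.19 higher (adjusted p = 0.0211, limma), PDIA4 1.46 (0.0355), HSP90B1 0.84 (0.0424) and ERN1 0.94 (0.0432). CALR and SDF2L1 changed sign, to 0.25 and 0.33, and did not pass (adjusted p = 0.374 and 0.115). The correction raised the estimates of PDIA4, ERN1, CALR and SDF2L1, whose GC contents are above the median, and lowered those of the other 6, to 0.04 for XBP1 and 0.08 for HERPUD1. Averaged over the compounds, DNAJB9 alone passed after the correction (0.70, adjusted p = 0.0166, against 21.7% of all genes called).

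**Figure D3:**
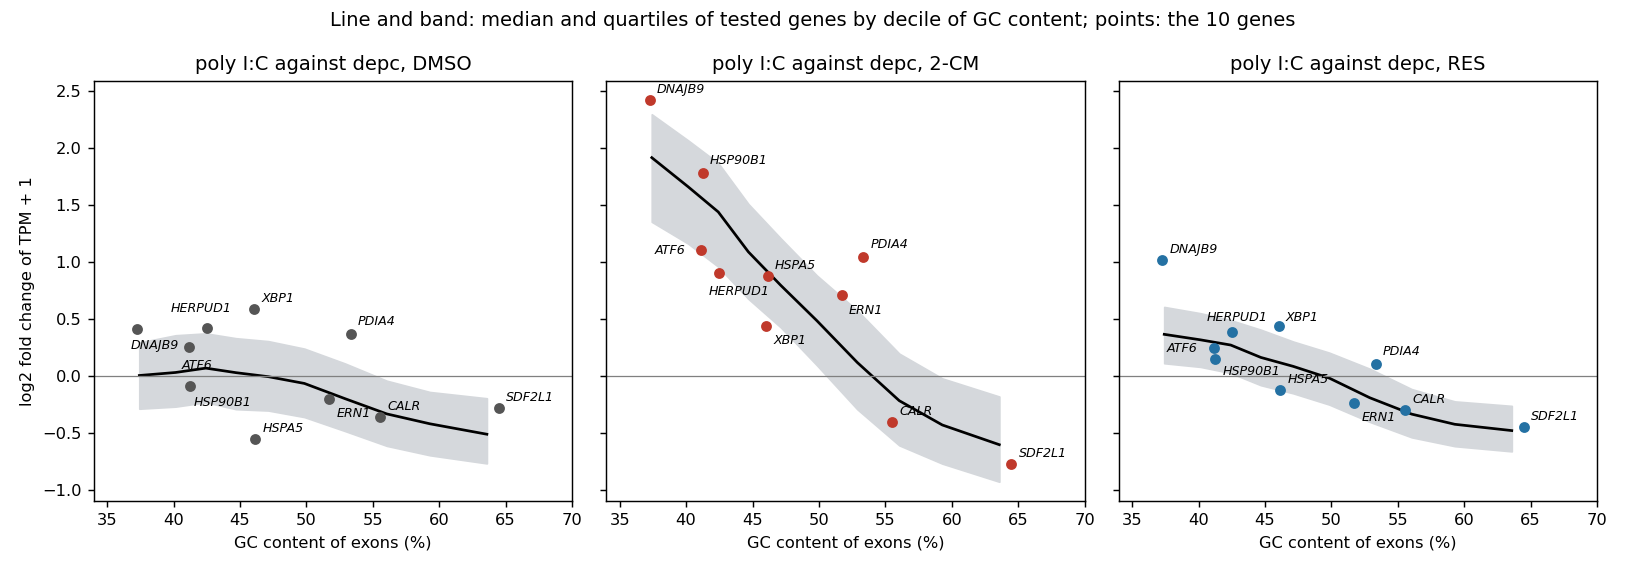
Log2 fold change of TPM + 1 for poly I:C against depc (y axis) against GC content of exons in percent (x axis), with the median (line) and quartiles (band) of the tested genes in deciles of GC content and the 10 members as points. Under 2-CM the line falls from 1.92 to -0.61. PDIA4 and, narrowly, ERN1 lie above the band there, while XBP1 and, narrowly, HERPUD1 lie below it. DNAJB9, at 2.42, lies just left of the band and above the upper quartile of 2.30 in the decile lowest in GC.

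The scaling of the libraries mattered as well. The median log2 change of all tested genes under 2-CM was 0.61, against -0.14 under DMSO and -0.03 under RES, and it was 0.03 under 2-CM after median-of-ratios scaling. Relative to the median of 0.61, DNAJB9 was 1.81, HSP90B1 1.17, PDIA4 0.43, XBP1 -0.18, CALR -1.02 and SDF2L1 -1.39. With median-of-ratios scaling, 6 members were above 0 and 4 below, and 3 passed: DNAJB9 higher (1.74) and CALR and SDF2L1 lower (-1.25 and -1.61). Over all genes that scaling called 3484 higher and 4046 lower, in place of 6440 higher and 2035 lower. DNAJB9 was the only called member that was higher with poly I:C under TPM, GC correction and median-of-ratios scaling alike, and passed each time.

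The deposited comparison for 2-CM called 4 of the 5 members called here, in the same direction. In the authors' deposited table for 2-CM, DNAJB9 had a log2 fold change of 2.18 (adjusted p = 1.43e-12), HSP90B1 0.95 (1.53e-07), CALR -1.25 (2.63e-15) and SDF2L1 -1.65 (1.86e-14), while PDIA4 had 0.20 (0.408) and was not called. In the same authors' deposited table, HSPA5 (0.03), HERPUD1 (0.064) and ATF6 (0.36) were closer to 0 than by TPM, and XBP1 (-0.24) and ERN1 (-0.15) had the opposite sign; none of these 5 passed. That table calls 46.4% of its genes. None of the 10 members passed in the authors' deposited tables for DMSO and for RES, which call 1.25% and 0.363% of their genes.

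Whether the poly I:C response differed between compounds was tested directly and passed for no member. The response under 2-CM exceeded that under DMSO by 2.01 ± 0.85 for DNAJB9 (adjusted p = 0.163, limma), by 1.87 ± 0.75 for HSP90B1 (0.162) and by 1.44 ± 0.63 for HSPA5 (0.169). The median over all genes was 0.68, and 2 of all genes passed (0.0116%). At an unadjusted p under 0.05 stood 3 of the 10 members, DNAJB9, HSP90B1 and ERN1 (0.91), against 29.7% of all genes. Median-of-ratios scaling gave 1.21 for DNAJB9, 0.86 for HSP90B1, 0.43 for HSPA5 and 0.07 for ERN1, and the members' median turned from 0.77 to -0.19. None of the 10 had an unadjusted p under 0.05 without replicate 1 of DMSO with depc, replicate 2 of DMSO with poly I:C or any 2-CM library, and the members' median was 0.47, 0.41 and 0.48 without replicate 1 of DMSO with depc, replicate 2 of DMSO with poly I:C and replicate 2 of 2-CM with depc. For RES against DMSO the members' differences ran from -0.26 (PDIA4) to 0.60 (DNAJB9), 0 members and 0% of all genes were called, and 0 members had an unadjusted p under 0.05 (1.7% of all genes). The 2 differences share the DMSO libraries. A called response under 2-CM and an uncalled one under DMSO therefore do not show that the responses differ.

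Compared with DMSO, 2-CM with depc gave no called member. HSPA5, HSP90B1, DNAJB9 and ATF6 lay wholly below the DMSO libraries (33.3% of all genes did), with log2 differences of -0.74, -0.80, -0.71 and -0.63, and none of the 10 passed in limma (0.0349% of all genes did), nor had any an unadjusted p under 0.05 (4.84% of all genes). The members' median was -0.14 by TPM and 0.070 with median-of-ratios scaling. By TPM it was -0.41 without replicate 2 of DMSO with depc and -0.0086 without replicate 2 of 2-CM with depc. With poly I:C, HSPA5, HSP90B1, PDIA4, DNAJB9, HERPUD1 and ERN1 lay wholly above DMSO (70.4% of all genes did) and CALR, XBP1 and SDF2L1 wholly below (6%). ERN1 had the smallest adjusted p, 0.122, at 0.79 ± 0.28, and no member passed (0.105% of all genes did); 1 had an unadjusted p under 0.05 (34.2% of all genes). The median of the members was 0.56 and that of all genes 0.59, and without replicate 2 of DMSO with poly I:C these were 0.29, with 6 members above 0, and 0.43. With median-of-ratios scaling the members' median was -0.21 with 7 of 10 below 0. HSPA5 (-0.08), PDIA4 (-0.25), HERPUD1 (-0.16) and ATF6 (-0.49) changed sign with that scaling, and ERN1 was at 0.13.

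With RES, all 10 estimates were above 0 in both transfections, as were those of 65.5% of all genes with depc and 76.6% with poly I:C, and none passed. The median of the members was 0.34 with depc, against 0.15 for all genes, and 0.48 with poly I:C, against 0.28. Under median-of-ratios scaling, 8 of the 10 were above 0 with depc and 7 with poly I:C (49.6% and 53.0% of all genes). Without replicate 1 of RES with depc, 5 were above 0 with depc and the members' median was 0.043; without replicate 2 it was 0.83, and without replicate 1 or 2 of DMSO with depc it was 0.61 or 0.17. With poly I:C, the median was 0.26 without replicate 2 of DMSO and 0.32 without replicate 2 of RES, each with 8 above 0. In the main fit XBP1 had the largest estimate with depc, 0.75 ± 0.29 with a 95% interval of 0.10 to 1.40 (adjusted p = 0.253, limma), and PDIA4 was at 0.74. With 1 library left out, XBP1 ranged from 0.42 to 1.08, PDIA4 from 0.27 to 1.21 and HERPUD1 from -0.10 to 1.24. The RES libraries of XBP1 lay above the DMSO libraries in both transfections. CALR and ERN1 also lay wholly above in both, and PDIA4 and HERPUD1 with poly I:C. That is 3 of 10 members with depc (25.7% of all genes lay wholly above) and 5 of 10 with poly I:C (28.3%). Calls were made for 1.03% of all genes with depc and 0.157% with poly I:C, and in each transfection 1 member had an unadjusted p under 0.05 (14.7% and 13.4% of all genes).

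The transcripts of XBP1 fall into those with and those without the segment that ERN1 removes. The segment is 26 bases long, at chr22:28796124-28796149 of hg38 on the minus strand, in the coding sequence. It is shown in capitals with 22 bases on either side, because its loss is what distinguishes XBP1s mRNA. An alternative annotated placement of the gap, 2 bases along, gives an identical joined RNA.
XBP1 segment with flanks: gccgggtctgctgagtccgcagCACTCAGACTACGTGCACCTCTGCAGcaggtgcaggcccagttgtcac

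The transcripts without the segment made up the larger part of XBP1 in 8 of 12 libraries and were listed at 0 in both libraries of 2-CM with poly I:C. Their TPM was 32.2 and 13.2 in DMSO with depc and 44.4 and 50.2 in DMSO with poly I:C, 36.3 and 5.998 in 2-CM with depc, 59.5 and 46.5 in RES with depc and 68.7 and 74.5 in RES with poly I:C. Transcripts that keep the segment had 68.8 and 73.5 TPM in those 2 libraries and between 25.3 and 54.0 TPM in the other 10. Among them, in replicates 1 and 2 of 2-CM with poly I:C, ENST00000403532.7 had 40.9 and 0 TPM and ENST00000405219.7 had 0.145 and 37.0. The quantifier thus divided the reads over different transcripts in these 2 replicates. As a share of both classes, the transcripts without the segment held 52.2% and 28.7% in DMSO with depc, 51.7% and 66.2% in DMSO with poly I:C, 54.1% and 14.6% in 2-CM with depc, 52.4% and 64.8% in RES with depc and 57.9% and 58.7% in RES with poly I:C. The share differed widely between the replicates of 2-CM with depc and of DMSO with depc, and little between those of RES with poly I:C.

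Poly I:C changed that share by -5.37 percentage points on average over the compounds (p = 0.639, two-sided exact permutation test within compounds, 216 arrangements). The difference was 18.5 points within DMSO, -34.4 within 2-CM and -0.30 within RES, and without the 2-CM libraries it was 9.12 points (p = 0.444, exact permutation test, smallest possible 0.0556). Against DMSO, the share differed by -32.5 points with 2-CM (p = 0.167, exact permutation test within transfections, 36 arrangements, smallest possible 0.0556) and by 8.75 points with RES (p = 0.389, same test), and a design of this size cannot reach 0.05. With 1 library left out, the difference within DMSO ranged from 6.78 (without replicate 2 with depc) to 30.3 points (without replicate 1 with depc). That within 2-CM ranged from -54.1 (without replicate 2 with depc) to -14.6 (without replicate 1 with depc), and that within RES from -6.49 to 5.88 (without replicate 1 or 2 with depc). The difference of RES from DMSO ranged from 2.87 to 14.6 points (without replicate 2 or 1 of DMSO with depc), and that of 2-CM from DMSO from -42.4 to -22.6 (without replicate 1 or 2 of 2-CM with depc). These shares are the quantifier's division of reads over annotated transcripts, and reads across the removed segment were not counted. The transcript that carries all of the TPM without the segment, ENST00000344347.5 of 1131 bases, also ends 620 bases earlier and begins 73 bases later than the main transcript that keeps it, ENST00000216037.10 of 1850 bases. How much of the share follows these ends was not tested, and an exact 0 can be a failed estimate.

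**Figure D4:**
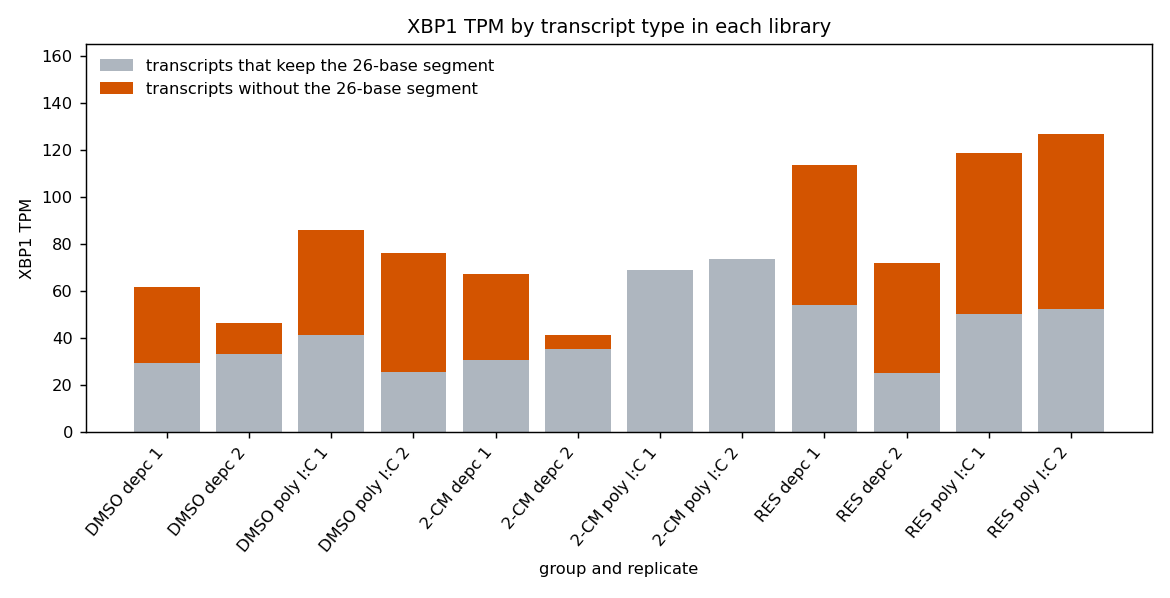
TPM of XBP1 transcripts (y axis, from 0) that keep the 26-base segment and that lack it, stacked, in each of the 12 libraries (x axis). The transcripts without the segment are listed at 0 in both libraries of 2-CM with poly I:C and reach 74.5 TPM in RES with poly I:C.

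Other genes of the ER machinery were followed in 4 lists. Under 2-CM, poly I:C raised 9 and lowered 4 of 22 other chaperones and folding enzymes, raised 7 and lowered 1 of 16 tested genes of ER-associated degradation, raised 10 and lowered 3 of 16 genes of the translocon and signal peptide processing, and raised 5 and lowered 4 of 16 tested genes among the other sensors, transcription factors and the PERK arm. Over all genes, 37.5% were called higher and 11.8% lower. In the same order of lists, median-of-ratios scaling gave 4 higher and 6 lower, 2 and 5, 3 and 3, and 2 and 5 (20.3% and 23.5% of all genes), and GC correction gave 5 and 1, 3 and 0, 5 and 1, and 4 and 0 (32.1% and 2.60%). DERL3 and ERN2 were below the filter. The median changes of the 4 lists were 1.02, 1.01, 1.42 and 0.18, against 0.61 for all genes, after GC correction 0.69, 0.40, 0.57 and 0.40 against 0.54, and with median-of-ratios scaling 0.19, 0.20, 0.57 and -0.60 against 0.03. The largest called changes of each list were DNAJC10 (2.47), a disulfide reductase, and SIL1 (-0.92), an exchange factor for HSPA5; the lectin ERLEC1 (2.06) and EDEM2 (-0.46), which trims mannose; the signal peptidase subunit SPCS3 (2.59) and SSR4 (-1.24), a subunit of the translocon-associated protein complex; and MBTPS2 (2.15), a protease that cuts ATF6, and TRIB3 (-1.21), a pseudokinase of the PERK arm. The GC contents of the 4 raised genes were 37.2% to 41.9% and those of the 4 lowered genes 53.6% to 61.2%. After GC correction, SPCS3 (1.41, adjusted p = 0.0324) and SIL1 (-0.48, adjusted p = 0.0288) still passed in limma, and EDEM2 turned to 0.075.

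Averaged over the compounds, poly I:C raised 2 and lowered 4 of the 22 chaperones and folding enzymes, raised 2 and lowered 4 of the 16 degradation genes, raised 6 and lowered 2 of the 16 translocon genes and raised 2 and lowered 3 of the 16 sensors and factors. Over all genes, 13.4% were called higher and 17.8% lower. With median-of-ratios scaling the counts were 1 and 4, 3 and 4, 9 and 2, and 2 and 6 (16.9% and 19.4% of all genes), and with GC correction 2 and 2, 2 and 1, 4 and 2, and 3 and 2 (13.5% and 8.17%). HYOU1, an ER HSP110 chaperone, fell by 0.73 (adjusted p = 0.00236, limma) and by 0.43 after GC correction (0.0192). DNAJB11, a co-chaperone of HSPA5, rose by 0.69 (adjusted p = 0.0450, limma) and did not pass after the correction (0.25, 0.0905). Of the degradation genes, SELENOK, a selenoprotein of the ER membrane, rose by 0.97 (adjusted p = 0.0200, limma) and NPLOC4, a cofactor of the VCP segregase, fell by 0.49 (0.00788); both still passed after the correction (0.51 and -0.30). SEC61G, a subunit of the translocon, rose by 1.03 (adjusted p = 0.00702) and by 0.63 after the correction (0.00332). SSR4 fell by 0.64 (adjusted p = 0.0231, limma) and was at -0.04 after the correction (0.688). ATF3, a stress-induced transcription factor, rose by 1.04 (adjusted p = 0.0104, limma) and by 1.06 after GC correction (0.0105). TRIB3 fell by 0.86 (adjusted p = 0.00834, limma) and by 0.34 after the correction (0.0162).

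DDIT3 (CHOP), the pro-apoptotic factor downstream of PERK and ATF4, was higher with RES in both transfections. It was chosen after its values were seen, as were OS9, a lectin of ER-associated degradation, and the stress-induced NUPR1. These are all the calls in the 4 lists for RES against DMSO: with depc, 0 of 22 chaperones and folding enzymes, 1 of 16 degradation genes (OS9), 0 of 16 translocon genes and 2 of 16 sensors and factors (DDIT3 and NUPR1), and with poly I:C DDIT3 alone, where 1.03% and 0.157% of all genes were called. None was lower. GC correction gave 1, 0, 0 and 4 with depc and 0, 0, 0 and 1 with poly I:C, and median-of-ratios scaling gave 0, 0, 0 and 1 with depc and none with poly I:C. NUPR1 was 1.57 ± 0.29 higher with RES and depc (adjusted p = 0.0491, limma) and was called in 5 of 21 alternative settings, not with median-of-ratios scaling (1.53, 0.139). Its levels were near the floor, 0.151 and 0.125 TPM in DMSO with depc and 1.37 and 3.81 in RES with depc. NUPR1 reached 1 TPM only in RES libraries, so it passed the filter through them alone and its call is no independent support. DDIT3 TPM was 29.0 and 26.1 in DMSO with depc and 52.2 and 34.3 in DMSO with poly I:C, 30.2 and 22.8 in 2-CM with depc and 54.3 and 55.2 in 2-CM with poly I:C, and 152 and 112 in RES with depc and 155 and 155 in RES with poly I:C. All 4 RES libraries of DDIT3 lay above all 8 others, and the share of all genes with this pattern was not computed. The log2 difference from DMSO was 2.21 ± 0.25 with depc (adjusted p = 0.0133, limma) and 1.85 ± 0.25 with poly I:C (adjusted p = 0.0393), and it was above 0 in all 22 alternative settings of each. It was called in 16 of these settings with depc and in 9 with poly I:C. OS9 was 0.72 ± 0.13 higher with RES and depc (adjusted p = 0.0483, limma) and was called in 2 of 22 alternative settings.

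The genes most alike in pattern over the 12 libraries were named by the correlation of log2(TPM + 1), among genes with a mean TPM of 5 or more. For HSPA5 these were ERMP1 (r = 0.983), ANTXR1 (0.981) and VPS13A (0.975). For XBP1 they were UGT3A2 (0.980), CDC45 (0.963) and TMEM106C (0.960), and for ERN1 KIF24 (0.988), SMYD4 (0.986) and AC074135.1 (0.981). Members were left out of that ranking. Among the members, HSPA5 correlated with HSP90B1 at 0.880, ATF6 at 0.847, ERN1 at 0.837 and XBP1 at 0.460, with CALR at 0.142 and with SDF2L1 at -0.62. These values describe 12 libraries that share groups and the GC tilt, and carry no test.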

How the data were processed

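Transcript abundances of 12 libraries were used as deposited. The authors quantified annotated transcripts of GENCODE 32 with StringTie 2.0.4, without a strand option, per the file headers. Each transcript has coverage, FPKM and TPM. The submitters' processing notes also name bcl2fastq 2.20, HISAT2 2.1.0, DESeq2 and hg38. The libraries were made with a stranded mRNA kit and read as pairs of 101 bases, per the labels' protocols. The 3 tables of the authors' own comparisons, poly I:C against depc, gave the authors' log2 fold change with its standard error and the authors' p-value and adjusted p-value, per the file headers.

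Gene TPM was the sum over transcripts (Python 3.11.15). In R 4.3.3, limma 3.58.1 fitted 6 group means to log2(TPM + 1) in all 12 libraries, with variances moderated along their trend and 6 residual degrees of freedom; this scale understates the change of low genes. No counts were used, so the test is the one planned for normalized values. Benjamini-Hochberg adjustment ran over the 17185 tested genes within each of 10 comparisons, and a gene was called at an adjusted p under 0.05. The scripts were tested on simulated data, with 100 genes changed by log2 1 and 100 by log2 2 in 2-CM with poly I:C. For poly I:C under 2-CM the fit called 8% and 60% of these. For the response under 2-CM minus that under DMSO it called 0% and 10%. Far more genes were called in the data under 2-CM, so recovery there may differ. An uncalled estimate therefore does not show that a gene was unchanged. GC content came from the exons on the hg38 genome, and the correction removed a lowess curve (span 0.3) from each library. XBP1 shares were tested by exact permutation. Other sequences came from RefSeq promoter windows of GRCh38.p14.

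The 10 members and the lists of pathway genes and markers were chosen with earlier results of these data known. Named were all members, and from each list the called genes with the largest positive and negative change in comparisons with a called member, and for HSPA5, XBP1 and ERN1 the 3 most correlated genes. The alternatives were FPKM, median-of-ratios scaling, no filter, a TPM minimum of 5, a pseudocount of 0.1, the replicate number as a block, GC correction, both together, only the groups compared, voom on reads estimated from coverage, and leaving out each library. Same-numbered libraries are not known to be paired.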

Additional observations from a re-analysis of the deposited data

Results flagged for a closer look

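As assigned by the quantifier, the TPM of XBP1 transcripts without the 26-base segment moved in opposite directions with poly I:C. Both libraries were higher with poly I:C than both with depc under DMSO and under RES, and both were lower under 2-CM, where they were listed at 0. The response under 2-CM minus that under DMSO was -45.8 TPM, and minus that under RES it was -39.7 TPM. These differences were not tested, and the 2 depc libraries of 2-CM held 36.3 and 5.998 TPM. The differences rest on the quantifier's division of reads over annotated transcripts, where an exact 0 can be a failed estimate.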

How the results depend on the processing

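The count of members called for poly I:C under 2-CM, 5 of 10, became 3 with median-of-ratios scaling (43.8% of all genes called), 0 with no filter on low genes (1.61% of all genes were then called, with the 5 estimates as before and adjusted p from 0.0677 to 0.0976) and 9 with only the groups compared (69% of all genes). It ranged from 0 to 8 over the 12 fits that left out 1 library. For the average over compounds, 3 of 10 became 1 with no filter (9.14% of all genes), 1 with GC correction (21.7%) and 5 with voom (36.8%), and ranged from 1 to 8 with libraries left out. ERN1 was called for 2-CM against DMSO with poly I:C under the replicate block with GC correction (1 member in place of 0), a fit that called 27.4% of all genes; GC correction alone called 23.4% there and 0 members. CALR and SDF2L1 changed sign with GC correction, to 0.25 and 0.33 under 2-CM and to 0.0067 and 0.13 for the average, with the same values under the replicate block with GC correction; the cause was not tested. The other comparisons had 0 members called in every setting. Of 92 uncalled pairs of member and comparison, 53 changed sign under some alternative.

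The change of the XBP1 share with poly I:C turned from -5.37 to 9.12 percentage points without the 2-CM libraries, an alternative chosen after seeing the data, and ranged from -11.97 to 1.23 with 1 library left out. Replicate numbers were not taken to pair the samples: deviations of same-numbered libraries correlated at 0.153 to 0.761 among the 5 groups other than RES with poly I:C, but at -0.796 to -0.307 between that group and the others. With the replicate number as a block, 7 members were called under 2-CM (51.8% of all genes) and 4 for the average (33.3%). Crossing the numbers of RES with poly I:C, also chosen after seeing the data, called 0 members there and 8.35% of all genes, against 0.442% without a block. Depth was estimated from coverage, and what it limits was not tested.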
